A study of Caenorhabditis elegans with 40 samples.

Results

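The 70 genes described here are numbered collagen genes of *Caenorhabditis elegans* whose RNA was far lower in young wild-type animals propagated at 25°C than in those propagated at 20°C. They were chosen by measured values. Of 156 genes named *col-* and a number among 41560 genes in the tables, 97 averaged at least 10 CPM (fragments per 1000000 fragments of a library) at 20°C in the young wild type, and 70 of these averaged more than 8-fold less at 25°C. The difference between 20°C and 25°C in young wild-type animals is therefore a property of the choice. It is described below without a test, and so is every comparison that reuses a young wild-type group.

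Cuticle collagens are short secreted proteins that epidermal cells make in bursts, one burst before each molt, and that are trimmed, cross-linked and built into the cuticle covering the animal. A different set of collagen genes is used at different larval stages and in the adult, and after the last molt most of the family is turned down. Mutations in the named members (*dpy*, *rol*, *sqt*, *bli* and *lon* genes) change body shape or blister the cuticle, whereas most members known only by a *col-* number have no visible phenotype of their own. NPR-8, the other variable of the study, is a neuronal G protein-coupled receptor of the neuropeptide receptor family.

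The libraries came from whole animals of 2 genotypes, wild-type N2 and *npr-8(ok1439)*, a backcrossed deletion strain represented here by a single allele. Both strains were fed *E. coli* OP50 and kept at 20°C or at 25°C for generations before collection. They were collected young (labeled as day 0 of adulthood, and called 1-day-old adults in the study) or old (day 9). This gave 8 groups of 5 poly(A) RNA libraries, 40 in all, and the question asked of them was how collagen RNA depended on temperature, on NPR-8 and on age. Nothing in the labels says that the 5 libraries of a group came from separate cultures, so each p-value measures only the spread between these libraries. In whole-animal RNA, fewer cells of a type and less RNA per cell cannot be told apart.

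Library depth ranged from 18690583 to 36883662 fragments with a median of 26451138. The tissue labels were checked with lists of marker genes, of which none was at 0 in any group, and the young groups differed in them. The summed level of 13 oocyte and early embryo genes was 619 to 747 CPM in young wild-type libraries at 20°C and 9445 to 9653 CPM at 25°C, and that of 15 sperm genes was 964 to 1113 CPM at 20°C and 82.4 to 138.6 CPM at 25°C. Growth temperature and the reproductive stage of the animals at collection cannot be told apart in these groups. Fragments of *npr-8* itself were as frequent in mutant as in wild-type libraries (young at 20°C, 2.63 ± 0.318 against 2.47 ± 0.162 CPM, SD, n = 5), so gene-level counts did not check the deletion. For old mutants at 20°C only transcript values were deposited. There, 64 of the 70 collagens could be matched, and *col-70*, *col-107*, *col-111*, *col-166*, *col-172* and *col-182* have no value from that group.

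Most of these collagens were among the abundant RNAs of the young animal at 20°C. Together the 70 genes took 4.602% of all fragments in wild-type libraries (46016 ± 6783 CPM, SD, n = 5) and 3.72% in *npr-8(ok1439)* libraries (37207 ± 1319 CPM). The median gene averaged 338 CPM in wild-type animals, and single genes ran from 10.6 CPM for *col-61* to 4375 CPM for *col-73*. On the length-corrected FPKM scale (fragments per kilobase of transcript and per 1000000 fragments), which allows different genes to be compared, *col-73* stood first at 2322 ± 657 FPKM. It was followed by *col-138* at 1798 ± 611, *col-77* at 1564 ± 348 and *col-38* at 1462 ± 404 FPKM, whose spreads overlap. The next level was shared by *col-49* (1151 ± 333 FPKM), *col-175* (1144 ± 314 FPKM), *col-63* (1136 ± 352 FPKM), *col-14* (1009 ± 248 FPKM) and *col-125* (929 ± 150 FPKM), none of which differed from its neighbors beyond the spread between libraries.

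The 70 genes were spread over all 6 chromosomes, with 17 on V, 16 on IV, 11 on X, 10 each on I and II, and 6 on III. Several sat beside each other on the ce10 genome used for the deposited tables. On chromosome X, *col-167* (chrX:6323451-6324357), *col-168*, *col-169* and *col-170* (chrX:6331672-6332575) formed a run of 4 genes with 1645 to 1993 bases between neighbors. On chromosome V, *col-144*, *col-145* and *col-10* formed a run of 3, and *col-146* with *col-147*, *col-149* with *col-150*, *col-13* with *col-12*, and *col-154* with *col-155* formed pairs. On chromosome I, *col-7* (chrI:7401693-7402705) lay 631 bases from *col-62* (chrI:7403337-7404349). Of the 70, 68 had an annotated protein, with a median length of 300 residues, from 277 in *col-17* to 393 in *col-115*, and a median of 2 exons. Neighbors often encoded proteins of the same length (316 residues for both *col-7* and *col-62*, and for both *col-12* and *col-13*), and how reads from near-identical copies were divided between them is uncertain. For 11 of the 70, *col-63* and *col-81* among them, the deposited interval is longer than 100000 bases and covers other genes.

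**Figure D1:**
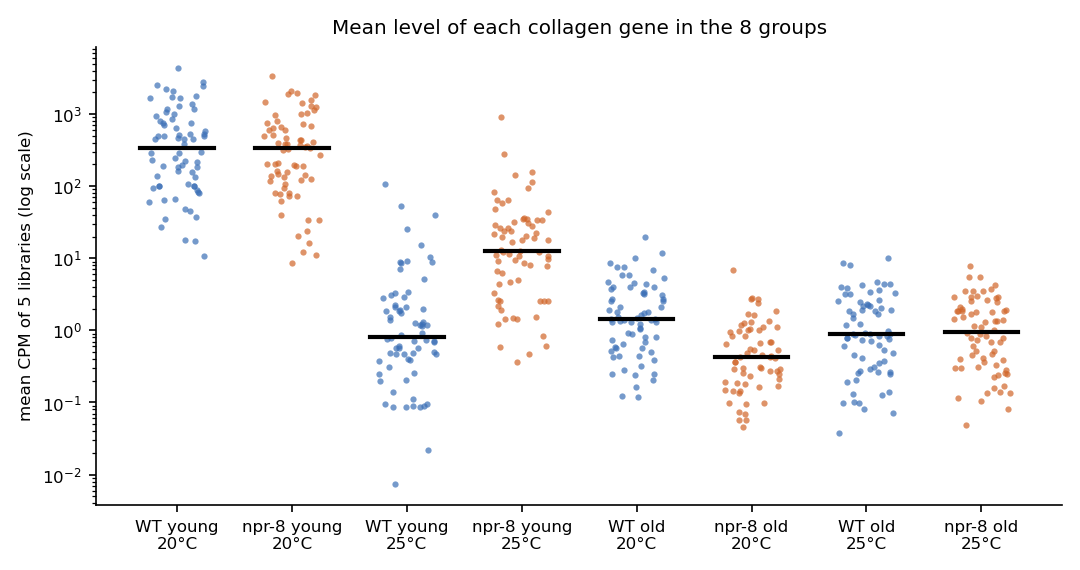
Mean CPM of each of the 70 collagens (points, log scale, mean of 5 libraries) in the 8 groups of wild-type (WT) and npr-8(ok1439) animals, with the median of the genes as a line. The median is 338 CPM in young wild-type animals at 20°C, 0.82 CPM in young wild-type and 12.5 CPM in young npr-8 animals at 25°C, and 0.429 to 1.44 CPM in the 4 groups of old animals, of which the npr-8 group at 20°C has 64 genes with values.

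Young wild-type animals kept little of this RNA at 25°C. Their summed level was 355 ± 65.0 CPM (SD, n = 5), or 0.0355% of all fragments. Of the 70 genes, 33 averaged 1 CPM or more and only 6 averaged 10 CPM or more. The ratio of the 20°C level to the 25°C level had a median of 491 and ran from 8.50 for *col-149* to 3010.4 for *col-88*.

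The steepest ratios belonged to genes of very different abundance. *col-88* gave 889.6, 914, 829, 1016 and 1102 CPM in the 5 libraries at 20°C and 0.346, 0.109, 0.810, 0.197 and 0.116 CPM at 25°C, where the 5 libraries together held 43 of its fragments. *col-49* gave 1725, 2316, 1799.8, 1183 and 1267 CPM at 20°C and 0.727, 0.944, 0.994, 0.748 and 0.348 CPM at 25°C, a ratio of 2205. No library at one temperature came near any library at the other for either gene. *col-161* (2010.5-fold) and *col-175* (1912-fold) fell almost as far. The scarce *col-54* had 1 fragment in 1 of 5 libraries at 25°C against 2431 fragments at 20°C, a ratio of 2408 with an exact 95% interval of 432 to 95141 that covers counting error only. *col-152* had 3 fragments against 5067, a ratio of 1673 with an interval of 572 to 8115.

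At the other end, the limit of 8-fold cut through a continuous series. Just inside it, *col-149* kept 11.8% of its 20°C level at 25°C, *col-81* kept 10.04%, *col-166* kept 8.67% and *col-155* kept 8.09%. Just outside it, *col-118* kept 12.8%, *col-139* kept 13.9%, *col-129* kept 17.97% and *col-76* kept 29.5%. Of the numbered collagens that the study inactivated, *col-7*, *col-49*, *col-77* and *col-88*, silenced by RNA interference, are among the 70. *col-139*, also silenced, and *col-179*, removed by a deletion, are not, and *col-179* was higher at 25°C (411 CPM) than at 20°C (85.2 CPM).

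In young animals at 20°C the collagens were abundant in both genotypes. The ratio of mutant to wild type had a median of 0.775, from 0.439 for *col-152* (16.3 against 37.2 CPM) to 3.14 for *col-149* (189 against 60.3 CPM). Values of all 5 mutant libraries lay below all 5 wild-type libraries for 16 of the 70 genes (22.9%, beside 13.2% of all genes), *col-77*, *col-60*, *col-113* and *col-155* among them, and above them for *col-149* alone (beside 11.4%). Here and below, shares of all genes are over the genes with enough fragments to be tested in that comparison. The wild-type group at 20°C took part in the choice of genes, so these values are a description.

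In young *npr-8(ok1439)* animals the collagens also fell between 20°C and 25°C, in libraries that played no part in the choice of genes. Calls were made with the quasi-likelihood test of edgeR, at a p under 0.05 after Benjamini-Hochberg adjustment across all genes and a change of at least 2-fold. By this rule 68 of the 70 were lower at 25°C and none was higher, where 26.2% of all genes tested were lower and 12.8% higher. Since 5 of the 70 passed the filter through the 20°C group alone, the values themselves were also compared, and all 5 libraries at 25°C lay below all 5 at 20°C for 68 of the 70 (97.1%, beside 35.4% of all genes). The median log2 fold change of the 70 was -4.98, where that of all genes was -0.06. Of the other 52 numbered collagens tested, 18 were lower and 24 were higher.

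The most abundant member shows the size of the change. *col-73* gave 3347, 3331, 3029, 3979 and 3182 CPM in *npr-8(ok1439)* libraries at 20°C and 28.5, 54.8, 98.4, 98.6 and 41.0 CPM at 25°C. The groups were far apart, and the log2 fold change was -5.66 (SE 0.405, adjusted p = 5.27e-08). The largest fall was that of *col-137*, singled out after its values were seen, from 123 to 1.45 CPM (log2 fold change -6.38, SE 0.315, adjusted p = 2.71e-09). *col-88* fell by 5.87 on the log2 scale and *col-49* by 5.75, and *col-77*, *col-138*, *col-38*, *col-63*, *col-14*, *col-175* and *col-161* fell by 5.53 to 5.74.

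Only *col-81* and *col-149* were not called in the mutant, the same genes that lay closest to the limit in wild-type animals. *col-81* gave 1874, 1164, 1545, 649 and 1163 CPM at 20°C and 409, 914, 1146, 1125 and 892 CPM at 25°C. The libraries overlapped, and the log2 fold change was -0.46 (SE 0.336, adjusted p = 0.231). *col-149* averaged 189 ± 23.5 CPM at 20°C and 144 ± 34.8 CPM at 25°C (log2 fold change -0.35, SE 0.200, adjusted p = 0.130). In wild-type animals the same genes went from 1059.8 to 106 CPM and from 60.3 to 7.10 CPM.

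**Figure D2:**
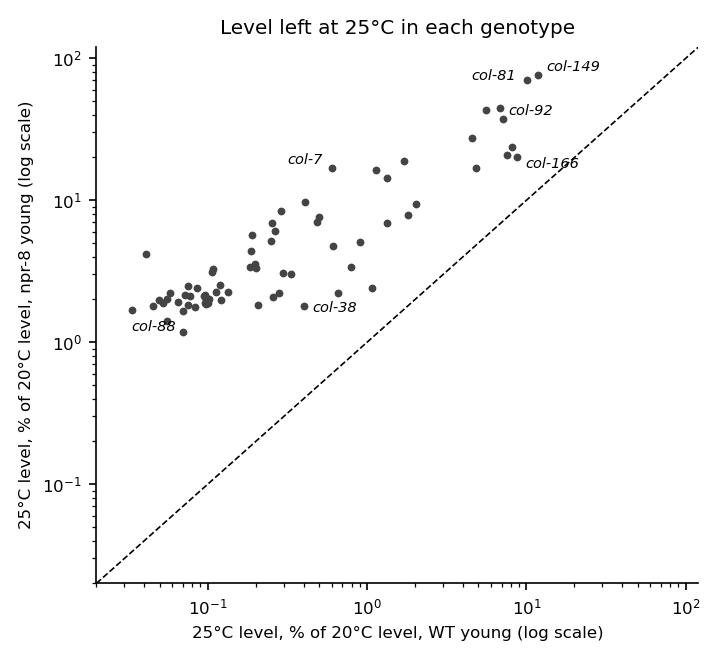
Level at 25°C as a percentage of the level at 20°C for each of the 70 collagens in young wild-type (x axis) and young npr-8(ok1439) animals (y axis), both on log scales, with the line of equality dashed. Every gene lies above the line, with medians of 0.204% in wild-type and 3.08% in npr-8 animals, and col-149 (76.3%) and col-81 (70.1%) are highest in the mutant.

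More collagen RNA was left at 25°C in the mutant than in the wild type. The summed level in young *npr-8(ok1439)* libraries at 25°C was 2801 ± 756 CPM, or 0.280% of fragments, where young wild-type animals had 355 ± 65.0 CPM. The mutant kept a median of 3.08% of its 20°C level, from 1.18% for *col-137* to 76.3% for *col-149*. Of the 70 genes, 65 averaged 1 CPM or more and 41 averaged 10 CPM or more. The ratio of mutant to wild type at 25°C had a median of 15.1. The values of all 5 mutant libraries lay above all 5 wild-type libraries for 69 of the 70 genes, beside 33.5% of all genes. The young wild-type group at 25°C, low by the choice of genes, enters each of these ratios, so they describe the members and test nothing.

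The size of the gap differed between members. The 5 largest fitted differences were those of *col-7*, *col-88*, *col-146*, *col-161* and *col-170*, which averaged 24.2, 11.5, 22.7, 19.5 and 2.53 CPM in the mutant and 0.609, 0.316, 0.713, 0.683 and 0.0878 CPM in wild-type animals. *col-88* gave 10.4, 9.73, 14.5, 14.2 and 8.78 CPM in the 5 mutant libraries, each more than 10-fold above every wild-type library. The smallest were those of *col-70* (0.828 against 0.484 CPM, with overlapping libraries), *col-68* (2.57 against 1.30 CPM) and *col-155* (83.6 against 39.8 CPM).

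The summed levels of oocyte, sperm and neuron markers also differed between these 2 groups at 25°C. Those of muscle and epidermal markers overlapped through library 0 of the mutant alone. The summed level of the oocyte and embryo genes was 3562 to 6665 CPM in *npr-8(ok1439)* and 9445 to 9653 CPM in wild-type libraries, that of the 15 sperm genes 252 to 393 CPM and 82.4 to 138.6 CPM, that of 4 body wall muscle genes 1597 to 4908 CPM and 2133 to 2460 CPM, and that of 8 epidermal genes other than collagens 370 to 701 CPM and 418 to 477 CPM. Their part in the result was not tested. Library 0 of the mutant group stood apart from the other 4. It was lowest in the oocyte, muscle and epidermal sums, held the smallest collagen sum (1752 CPM, against 2522 to 3559 CPM in the others) and gave the lowest value of 38 of the 70 genes, yet the highest value of 13. Without it, 67 of the 70 passed the test of 25°C against 20°C in the mutant, all lower at 25°C.

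**Figure D3:**
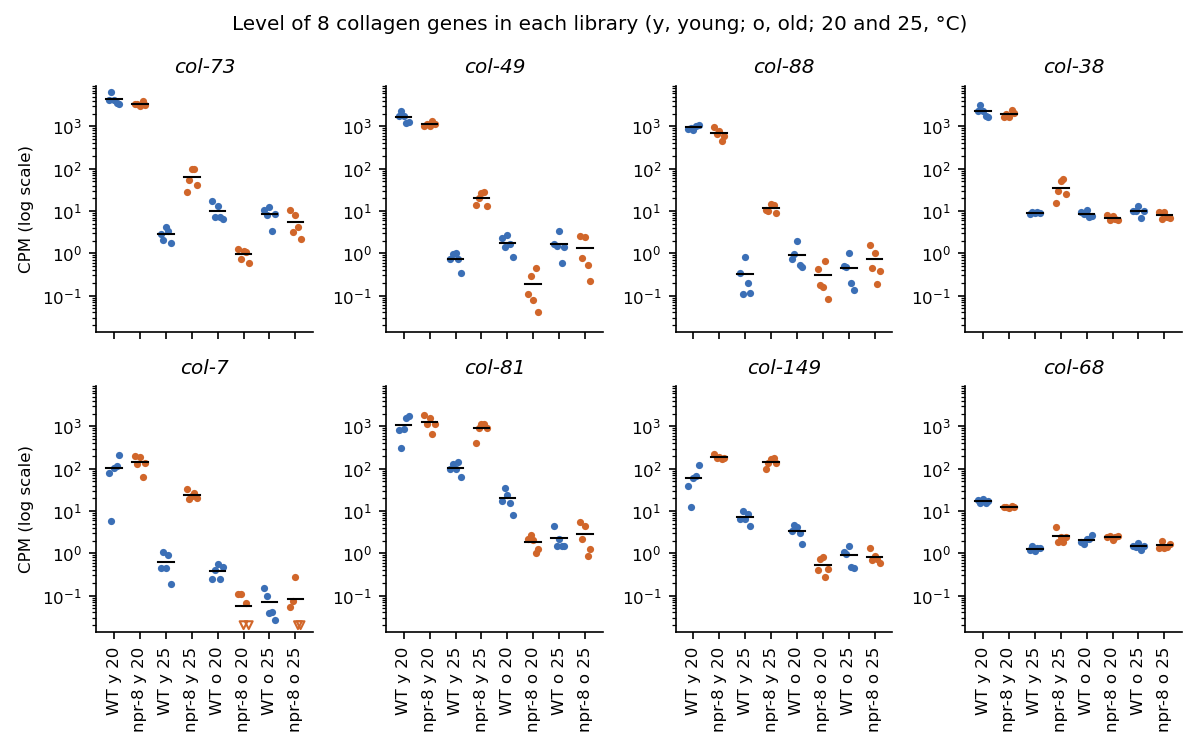
CPM (log scale) of 8 collagens in each of the 40 libraries, with the group mean as a line, wild-type in blue and npr-8(ok1439) in orange, and open triangles at the axis for libraries with no fragment. In all 8 genes the young npr-8 libraries at 25°C sit above every young wild-type library at 25°C, and for col-7, col-81 and col-149 they reach into the range of the young libraries at 20°C. For col-7 that range includes the low library 1 of wild-type animals, at 0.0452 of the mean of the other 4.

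Within young wild-type animals at 20°C the 70 genes did not vary together. Library 1 had the highest summed level (57889 CPM, against 41237 to 44644 CPM in the others) and the highest value of 42 members, but the lowest value of 16. *col-73* gave 4089, 6614, 4241, 3636 and 3295 CPM in libraries 0 to 4, highest in library 1. *col-7* gave 80.5, 5.69, 103, 113 and 207 CPM in the same order, lowest in library 1. Its neighbor *col-62* followed it with 82.5, 7.82, 102, 109 and 206 CPM, although reads of such copies may be shared.

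The 16 members that were lowest in that library were *col-7*, *col-13*, *col-39*, *col-61*, *col-62*, *col-81*, *col-91*, *col-92*, *col-133*, *col-137*, *col-146*, *col-147*, *col-149*, *col-150*, *col-159* and *col-180*. Their level there was 0.0452 to 0.859 of the mean of the other 4 libraries, with a median of 0.443, and that of the 42 highest members was 1.09 to 1.92, with a median of 1.46. Library 3 of young *npr-8(ok1439)* animals at 20°C showed a like division. All of the 16 were lowest there, at a median of 0.514 of the other 4, against 13 of the 42, whose median was 1.03. These sets were drawn after the values were seen and are given as a description. Vitellogenins, the yolk proteins made by the adult intestine, were also lowest in the same libraries, with sums of 5 genes of 1283 CPM in library 1 of the wild type (6128 to 11603 CPM in the others) and 5903 CPM in library 3 of the mutant (9771 to 14188 CPM in the others). Sums of 17 molting genes were highest there, at 2321 CPM in the wild-type and 4612 CPM in the mutant library. So were those of 20 cuticle collagens with a phenotype name, at 19230 and 16705 CPM. The oocyte and embryo sum was lowest in library 3 of the mutant (1028 CPM, others 1330 to 1673 CPM). It was not lowest in library 1 of the wild type (641.5 CPM, others 619 to 747 CPM). The part of these libraries' stage in the values was not tested.

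**Figure D4:**
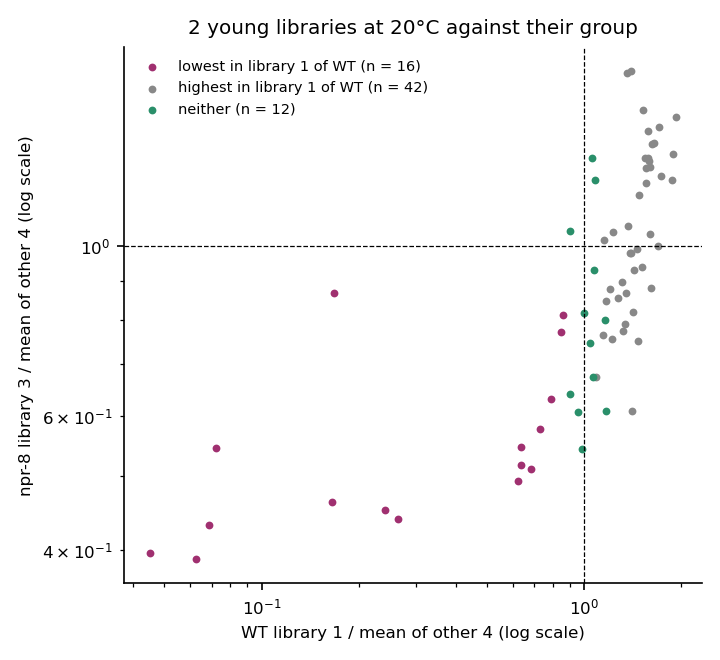
For each of the 70 collagens, its CPM in library 1 of young wild-type animals at 20°C (x axis) and in library 3 of young npr-8(ok1439) animals at 20°C (y axis), each divided by the mean of the other 4 libraries of its group, on log scales. The 16 genes lowest in the wild-type library (0.0452 to 0.859) all lie under 1 in the mutant library (0.390 to 0.868), and the 42 highest (1.09 to 1.92) lie on both sides of 1 (0.608 to 1.69).

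As a description, the 16 genes kept more of their level at 25°C than the 42. Their median was 1.33% of the 20°C level in wild-type and 16.5% in *npr-8(ok1439)* young animals, where the 42 had medians of 0.116% and 2.23%. The wild-type medians are not independent of the sets, since the library that set the genes apart enters their 20°C level. Both wild-type groups also took part in the choice of genes. The mutant medians come from libraries that did not define the sets, although the sets were drawn after the values were seen. *col-137*, with the largest fall in the mutant, was an exception among the 16. The difference was visible in single genes, as *col-159* averaged 275 ± 52.7 CPM in the mutant at 25°C and 739 ± 191 CPM at 20°C, whereas *col-38* averaged 35.4 ± 17.3 CPM and 1959.9 ± 331 CPM.

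By day 9 the collagens were low in every group. In wild-type animals at 20°C the median gene averaged 1.44 CPM and the 70 together 185 ± 41.8 CPM. Old wild-type animals at 25°C had 120 ± 32.4 CPM and old *npr-8(ok1439)* libraries at 25°C had 104.04 ± 43.1 CPM. Old *npr-8(ok1439)* libraries at 20°C had 49.3 ± 5.21 CPM over the 64 matched genes, which summed to 164 ± 39.6 CPM in old wild-type animals at 20°C. The 4 genes with the highest average in any old group were *col-81* and *col-73* (19.9 and 10.2 CPM in old wild-type animals at 20°C), *col-166* (11.8 CPM in the same group) and *col-38* (10.05 CPM in old wild-type animals at 25°C).

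Between genotypes in old animals at 20°C, most collagens were lower in the mutant. Of 49 tested, 37 were lower and none was higher, beside 9.47% of all genes lower and 11% higher, and 15 more had a value but too few fragments to be tested. The median log2 fold change of those tested was -1.98, against -0.03 over all genes. Since 26 of the 49 passed the filter through the wild-type group alone, the count over all 64 genes with values is the fuller one, and the 5 mutant libraries lay below all 5 wild-type libraries for 35 of 64 (54.7%, beside 29.1% of all genes tested). Of 44 other numbered collagens tested, 31 were lower. With limma on log2(FPKM + 1) the count of members lower was 16.

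Several abundant members were among the largest decreases. *col-73* gave 16.9, 7.05, 13.2, 7.35 and 6.63 CPM in old wild-type and 1.28, 0.749, 1.12, 1.10 and 0.584 CPM in old *npr-8(ok1439)* libraries at 20°C, with no overlap (log2 fold change -3.39, SE 0.402, adjusted p = 4.62e-05). *col-175* gave 2.65, 1.53, 2.96, 1.93 and 1.37 CPM against 0.107, 0, 0.160, 0.377 and 0.167 CPM, the largest fall (-3.63, SE 0.410, adjusted p = 1.45e-06). The log2 fold changes of *col-81*, *col-146*, *col-77* and *col-49* were -3.44, -3.39, -3.23 and -3.12. *col-88*, at 0.927 ± 0.584 against 0.300 ± 0.235 CPM, fell less (-1.57, SE 0.532, adjusted p = 0.0195).

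A smaller set did not follow. *col-60* averaged 1.31 ± 0.709 CPM in old wild-type and 1.69 ± 0.215 CPM in old mutant animals (log2 fold change 0.36, SE 0.274, adjusted p = 0.253), *col-68* 2.11 ± 0.400 and 2.39 ± 0.166 CPM (0.19, SE 0.135, adjusted p = 0.223), and *col-113* 2.58 ± 0.191 and 2.70 ± 0.600 CPM (0.08, SE 0.140, adjusted p = 0.625). The libraries of each overlapped. *col-63*, among the most abundant in young animals, was 3.19 ± 1.14 and 2.80 ± 0.313 CPM (-0.19, SE 0.208, adjusted p = 0.431), and *col-38* differed by only -0.35 (SE 0.110, adjusted p = 0.00841), below the 2-fold limit. Of the 6 members without matched values, the deposited tables give the authors' group value for 4, among them *col-166* with 8.09 FPKM in wild-type and 2.37 FPKM in mutant animals.

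In old animals at 25°C no member passed the test between genotypes. Of 51 tested, 0 were called in either direction, with 10 at an unadjusted p under 0.05, and DESeq2 and limma called 0 as well. Of all genes, 10.1% were called higher and 3.50% lower, and 19 members had too few fragments. *col-73* gave 10.5, 8.01, 12.6, 3.39 and 8.405 CPM in wild-type and 10.3, 3.25, 8.01, 4.08 and 2.13 CPM in mutant libraries, which overlapped (log2 fold change -0.77, SE 0.442, adjusted p = 0.162). The largest differences were -1.04 for *col-138* (SE 0.549, adjusted p = 0.129) and 0.92 for *col-60* (SE 0.279, adjusted p = 0.0111), the latter below the 2-fold limit.

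**Figure D5:**
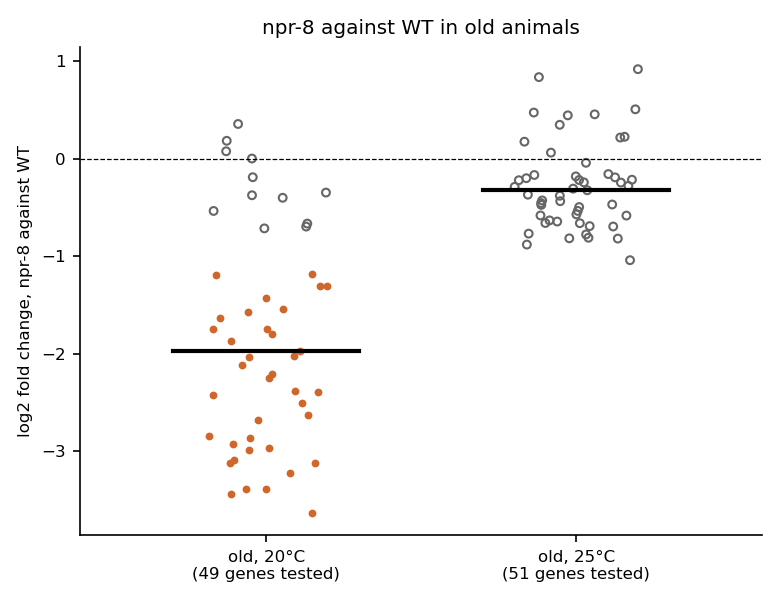
Fitted log2 fold change of npr-8(ok1439) against wild-type old animals for each collagen tested at 20°C (49 genes) and at 25°C (51 genes), with the median as a line and filled points for genes at an adjusted p under 0.05 and at least 2-fold. At 20°C the median is -1.98 and 37 genes are filled, and at 25°C the median is -0.32 and none is.

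The difference between these genotype effects was tested directly. For 29 of 55 genes the effect of *npr-8(ok1439)* was more positive at 25°C than at 20°C in old animals, and for none was it more negative. Of all genes, 4.71% were called in that direction and 2.57% in the other. The same held for 26 of 47 other numbered collagens. A member could enter this test through old wild-type animals at 20°C alone, where the median member was highest among the old groups. Such entry favors the positive direction, and how many members entered so was not counted. The largest difference was that of *col-146* (3.93 on the log2 scale, SE 1.07, adjusted p = 0.00738), followed among the genes shown by *col-81* (3.65, SE 0.760, adjusted p = 0.00143). *col-146* gave only 0.107, 0, 0.240, 0 and 0 CPM in old mutant libraries at 20°C, so the size of its difference is uncertain. *col-77* and *col-73* differed by 2.72 and 2.61, whereas *col-38* (-0.12, SE 0.211, adjusted p = 0.698) and *col-63* (-0.13, SE 0.504, adjusted p = 0.869) did not pass the test. The call of *col-49* (2.57, SE 0.972, adjusted p = 0.0492) lay next to the threshold and was lost with other size factors or without a filter on low counts.

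Between temperatures, the members called in old animals were all lower at 25°C in wild-type and all higher at 25°C in *npr-8(ok1439)* animals. Most calls among the other numbered collagens went the same way. In old wild-type animals 15 of 44 others tested were lower at 25°C and 2 were higher. In old *npr-8(ok1439)* animals 19 of 47 others were higher and 1 was lower. In old wild-type animals 13 of 55 genes tested were lower at 25°C than at 20°C and none was higher, beside 4.25% of all genes lower and 1.98% higher. The 13 were *col-12*, *col-39*, *col-62*, *col-81*, *col-89*, *col-90*, *col-92*, *col-111*, *col-133*, *col-146*, *col-147*, *col-149* and *col-159*, and 9 of them belong to the 16 genes set apart in young animals at 20°C, of which 11 were tested. *col-81* gave 17.6, 35.0, 23.4, 15.3 and 8.16 CPM at 20°C and 4.51, 1.4995, 2.19, 1.52 and 1.49 CPM at 25°C, without overlap (log2 fold change -3.18, SE 0.489, adjusted p = 0.000639). Of the 55, 10 passed the filter through the 20°C group alone and 15 more members were not tested. Over all 70 genes, the 25°C libraries lay below all 20°C libraries for 14 (20%, beside 19% of all genes tested). These shares are close, although the 70 include the 15 that were not tested. *col-73* (-0.24, SE 0.384, adjusted p = 0.629) and *col-138* (0.16, SE 0.445, adjusted p = 0.790) did not pass. Leaving out library 2 at 25°C raised the count from 13 to 20.

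In old *npr-8(ok1439)* animals 20 of 41 genes tested were higher at 25°C than at 20°C and none was lower, beside 3.88% of all genes higher and 6.08% lower. A further 23 had a value but were not tested, and 12 of the 41 passed the filter through the 25°C group alone. Over the 64 genes with values, the 25°C libraries lay above all 20°C libraries for 16 (25.0%, beside 20.0% of all genes tested). These shares are near each other, although the 64 include the 23 that were not tested. *col-73* gave 1.28, 0.749, 1.12, 1.10 and 0.584 CPM at 20°C and 10.3, 3.25, 8.01, 4.08 and 2.13 CPM at 25°C, without overlap (log2 fold change 2.42, SE 0.502, adjusted p = 0.00298). The count rested partly on library 0 at 25°C, which held the highest value of 53 of the 70 genes, and was 13 without it.

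Other markers differed between the old groups as well. At 20°C the 15 sperm genes summed to 167 to 191 CPM in old *npr-8(ok1439)* and 6.15 to 33.5 CPM in old wild-type libraries, the 8 epidermal genes to 288 to 304 CPM and 396 to 430 CPM, the 4 muscle genes to 166.2 to 196 CPM and 272 to 482 CPM, and 5 vitellogenins to 17569 to 19667 CPM and 30227 to 33447 CPM. At 25°C the sperm genes summed to 61.2 to 78.8 CPM in old mutant and 5.69 to 7.91 CPM in old wild-type libraries. The 13 oocyte and embryo genes summed to 8504 to 9192 CPM and 10734 to 11134 CPM at 25°C. At 20°C their sums were 8717 to 9370 CPM and 9864 to 10215 CPM. Other sums overlapped at 25°C, at 331 to 391 CPM and 363 to 421 CPM for epidermis and 345 to 479 CPM and 366 to 396 CPM for muscle. Those of vitellogenins, 19305 to 32581 CPM and 31508 to 36282 CPM, also overlapped. The part of these markers in the collagen differences was not tested. The old mutant values at 20°C also come from transcript tables summed to genes, and group and table cannot be told apart in the comparisons that use them.

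Age was tested in *npr-8(ok1439)* animals, whose young groups took no part in the choice of genes. The choice did require at least 10 CPM in young wild-type animals at 20°C, so it favored genes that are high in young animals. At 20°C all 64 genes with values were lower on day 9, beside 39.0% of all genes, with a median log2 fold change of -9.50 against -0.28 over all genes. Of these, 41 passed the filter through the young group alone, and the old libraries lay below all young libraries for all 64, beside 47.2% of all genes. Of 59 other numbered collagens tested at 20°C, 41 were lower on day 9 and 8 were higher, with a median of -3.92. *col-175* fell furthest, from 1243 ± 156 to 0.162 ± 0.138 CPM (log2 fold change -12.88, SE 0.236, adjusted p = 1.25e-12), and *col-68* least, from 12.3 ± 0.483 to 2.39 ± 0.166 CPM (-2.39, SE 0.0822, adjusted p = 1.27e-13). At 25°C, 65 of 67 were lower on day 9, beside 23.4% of all genes, with a median of -3.75. Other numbered collagens fell by a similar amount there, with 32 of 48 lower, 8 higher and a median of -3.39. Of the 67, 27 passed the filter through the young group alone, and over all 70 the old libraries lay below all young libraries for 66 (94.3%, beside 27.9% of all genes). There the fall was deepest for *col-81* (-8.55, SE 0.587, adjusted p = 3.09e-08), and the 16 genes set apart in young animals had a median of -6.83 where the 42 had -3.40.

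In wild-type animals, given as a description, the old libraries lay below all young libraries at 20°C for all 70 genes, beside 44.1% of all genes. At 25°C, where the young level was already low, they lay below for 17 of the 70 (24.3%, beside 24.6% of all genes tested) and above for 11 (15.7%, beside 43.4%). The 70 include 16 with too few fragments to be tested. *col-73* averaged 2.85 CPM in young and 8.60 CPM in old wild-type animals at 25°C, while *col-159* averaged 53.6 and 1.89 CPM.

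The 22 cuticle collagens with a phenotype name are not *col-* genes and were not open to the choice. In young *npr-8(ok1439)* animals 19 of 21 tested were lower at 25°C than at 20°C and none was higher (median log2 fold change -5.44), beside 26.2% and 12.8% of all genes. *rol-8*, whose mutants roll, fell by 5.75 and *dpy-10*, whose mutants are short and fat, by 3.95. *dpy-14* (0.81, SE 0.224, adjusted p = 0.00541) and *dpy-17* (0.27, SE 0.155, adjusted p = 0.136) were not called. In old animals at 20°C, 18 of 20 were lower in the mutant, beside 9.47% of all genes, led by *rol-1* (-4.01, SE 0.299, adjusted p = 3.74e-10). A gene could enter this test through the wild-type group alone, which favors lower calls, and how many entered so was not counted. Between temperatures 12 of 19 were higher at 25°C in the old mutant, beside 3.88% of all genes. In old wild-type animals none of 21 was called between temperatures, where 4.25% of all genes were lower and 1.98% higher.

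The enzymes that process collagen were called in part. Of 16 tested in young *npr-8(ok1439)* animals, 7 were lower at 25°C and none was higher, beside 26.2% and 12.8% of all genes. They included the prolyl 4-hydroxylase subunits *dpy-18* (-2.75, SE 0.224, adjusted p = 1.77e-07) and *phy-2* (-1.72, SE 0.181, adjusted p = 2.07e-06) and their partner *pdi-2*, a protein disulfide isomerase (-1.34, SE 0.218, adjusted p = 0.000101). The collagen C-proteinase *dpy-31* (0.10, SE 0.109, adjusted p = 0.426) and the processing protease *bli-4* (-0.31, SE 0.135, adjusted p = 0.0534) were not called. None of 11 tested was called between genotypes in old animals at 20°C, where 9.47% of all genes were lower.

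Of 18 genes of molting tested in young mutants, 14 were lower at 25°C and none was higher, beside the same shares of all genes, among them *ptr-4* (-5.64), *mlt-10* (-5.50) and *noah-1* (-4.56), an apical matrix protein. Of 20 regulators of the epidermis and of developmental timing, 6 were lower and 1 was higher, a share of lower calls near that of all genes. *lin-42*, the worm Period homolog that cycles with the molts, fell by 4.47 (SE 0.353, adjusted p = 1.32e-07), *nhr-25* by 1.89, *blmp-1* by 1.73 and *lin-29*, which drives the larval to adult switch in the epidermis, by 1.26. *nhr-23*, a nuclear receptor needed for molting, did not pass (-0.04, SE 0.184, adjusted p = 0.867), and *lin-41*, which acts upstream of *lin-29*, was higher (1.20, SE 0.257, adjusted p = 0.000947). In old animals at 20°C, 8 of 17 molting genes were lower in the mutant, beside 9.47% of all genes, and none of 16 regulators was.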

How the data were processed

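RNA-seq was measured in 40 libraries of whole *C. elegans*, 5 in each of 8 groups of genotype, temperature and age. Libraries were made with a stranded poly(A) kit. The study's methods name HISAT2 and the submitters' processing notes name Bowtie2 2.3.4, Cufflinks 2.2.1, Cuffdiff and bcl2fastq, with the ce10 build. The authors deposited Cuffdiff tables of fragments per gene and library, which are expected counts, and of FPKM values. The deposited columns of the authors' own comparisons (log2 fold changes, p-values and q-values) and 12 columns of scaled fragments were not used.

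CPM was computed as fragments times 1000000 over the library sum. Expected counts were rounded to whole numbers. The transcript values of old *npr-8(ok1439)* libraries at 20°C were added up per gene, which matched 12432 (89.8%) of 13851 genes with a mean of 10 fragments in old wild-type animals at 20°C (10820 by accession, 1612 by equal counts in the shared wild-type libraries, and 13 matches dropped). They held 83.4% of the fragments. For 99.4% of accession matches the FPKM lay within 2% of the deposited group value.

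Comparisons were fitted across all genes with edgeR 4.0.16 (quasi-likelihood test, TMM scaling, filter at 10 fragments and a total of 15, prior count 0.125), in R 4.3.3, each on the 2 groups compared. The test of the genotype effect at 25°C against that at 20°C used the 4 old groups. A call is an adjusted p under 0.05 and a log2 change of at least 1. Fitted changes of genes near 0 fragments depend on the prior count. DESeq2 1.42.0, limma 3.58.1 on log2(FPKM + 0.1) and log2(FPKM + 1), other scalings, no filter, and each library left out were alternatives. The fits were tested on simulated data.

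The members and lists were chosen with earlier results of these data known. Named members are those highest in young wild-type animals at 20°C, lowest in ratio, nearest the limit, most and least different between genotypes (young 25°C, old 20°C), highest in old animals, or inactivated in the study. *col-12*, *col-13*, *col-62*, *col-92*, *col-137*, *col-147*, *col-152*, *col-159* and the others named in sets were added after values were seen. Libraries carry the numbers 0 to 4 of the tables. Exon counts and protein lengths come from the WBcel235 annotation, from which no coordinate was taken. A description of promoter motifs was planned and not run, as sequences were not used here.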

Additional observations from a re-analysis of the deposited data

Results flagged for a closer look

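Of 136 sets of 5 libraries looked at over 16 members and the sum, 10 held a library far from the other 4. The limit used is passed by about 1 in 20 sets of independent, normally distributed values. These sets share libraries and some lie near 0 fragments, so their count cannot be set against that rate. In young wild-type animals at 20°C library 1 was high for the summed members (57889 CPM, others 41237 to 44644), for *col-73* (6614 CPM, others 3295 to 4241), for *col-77* (3668 CPM, others 2309.7 to 2699.9) and for *col-138* (3849 CPM, others 1777 to 2347). *col-77* was also high in library 0 of young *npr-8(ok1439)* animals at 20°C (2254 CPM, others 1998 to 2069.7) and in library 3 of the old ones (0.960 CPM, others 0.178 to 0.399). *col-7* was high in library 2 of old *npr-8(ok1439)* libraries at 25°C (0.282 CPM, others 0 to 0.0755), and *col-81* in library 0 of old wild-type animals at 25°C (4.51 CPM, others 1.49 to 2.19). In young wild-type animals at 25°C *col-159* was low in library 4 (41.3 CPM, others 54.9 to 58.0), and *col-54* had its only fragment in library 2 (0.0368 CPM, others 0).

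In old animals the effect of *npr-8(ok1439)* differed between 25°C and 20°C, by edgeR's test of the difference on the log2 scale, for 8 of these members. The differences were 2.61 (SE 0.680, adjusted p = 0.00690) for *col-73*, 2.72 (SE 0.847, adjusted p = 0.0196) for *col-77*, 2.57 (SE 0.972, adjusted p = 0.0492) for *col-49* and 1.91 (SE 0.563, adjusted p = 0.00997) for *col-12*. They were 3.65 (SE 0.760, adjusted p = 0.00143) for *col-81*, 2.75 (SE 0.659, adjusted p = 0.00382) for *col-159*, 2.45 (SE 0.521, adjusted p = 0.00108) for *col-149* and 2.23 (SE 0.561, adjusted p = 0.00475) for *col-147*.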

How the results depend on the processing

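No paired analysis was possible because the tables number the libraries 0 to 4 within a group and nothing ties these to the numbers in the labels. A limit of 4-fold would have chosen 73 genes (adding *col-118*, *col-129* and *col-139*), 16-fold 63, a minimum of 5 CPM 74, TMM-scaled CPM (chosen after seeing the data) 69 and FPKM 67, and leaving out single libraries 69 to 73. No result reversed. Counts of called members stayed within 1.5 times their value in 391 cases and not in 16, where the cause was not tested. In fits that reuse a young wild-type group and serve only as a description, the 1 member higher in the mutant at 20°C was lost without wild-type library 0 or 2 (range 0 to 1 over single libraries), and in wild-type animals at 25°C 14 instead of 9 were higher on day 9 with library size alone (range 7 to 12). In old wild-type animals 11 to 20 instead of 13 were lower at 25°C, with 20 without library 2 at 25°C, and in old mutants 13 to 22 instead of 20 were higher, with 13 without library 0. At 20°C in old animals 16 instead of 37 were lower in the mutant with limma on log2(FPKM + 1), against 36 with 0.1, 45 with DESeq2 or no filter, and 37 to 40 over single libraries. At 25°C 1 was higher with library size alone or no filter and 1 lower with no filter (0 to 1 and 0 to 2 over single libraries). The genotype effect in old animals was more positive at 25°C for 24 to 33 members over single libraries, against 29. Among single named members 22 calls were gained and 38 lost. The smallest levels rest on few fragments, so differences among members under 1 CPM were often not detectable at this depth.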
